A study of Camelus dromedarius with 10 samples.

Results

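The circadian clock transcription factors examined here are the DNA-binding proteins of the cellular clock and of its first output layer. The group comprised 9 genes, CLOCK, ARNTL (also called BMAL1), NPAS2, BHLHE40, BHLHE41, DBP, TEF, HLF and NFIL3, chosen by name among the 22444 gene IDs of the count table. An ID was taken as a member when the study's supplementary tables paired it with one of these symbols, and all 9 were paired with 1 ID each. Their mRNAs were measured by sequencing of ribosomal RNA-depleted RNA from the rostral supraoptic nucleus (SON) of the dromedary camel, the hypothalamic nucleus whose large (magnocellular) neurones make vasopressin and oxytocin. The 10 libraries came from 10 male camels aged 4 to 5 years, 5 that drank freely (control) and 5 that were deprived of water for 20 days (WD). Both groups lived outdoors on a ranch with feed, and each library was made from punches of the SON of 1 side of 1 brain. The hour of brain collection is not given in the sources used here, so no level can be placed in the daily cycle.

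In the mammalian clock, CLOCK, or its paralogue NPAS2, pairs with ARNTL and activates genes that carry E-box motifs. Among the targets are the PER and CRY genes, whose products feed back on the activators, and NR1D1 and NR1D2, nuclear receptors that repress ARNTL. BHLHE40 and BHLHE41 (DEC1 and DEC2) bind the same E-boxes as repressors. A further pair of opposed factors acts on D-box motifs, which DBP, TEF and HLF (the PAR bZIP family) activate and NFIL3 (E4BP4) represses. In many rodent tissues DBP mRNA has one of the steepest daily rhythms of the whole set, close to the opposite phase of ARNTL. The clock runs in neurones and glia of many brain regions besides the suprachiasmatic nucleus, the master pacemaker that lies near the SON.

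Library depth limited the precision of the scarcer members. Total counts per library ran from 1665098 in control library 13 (CON13) to 8126641 in WD9, of which the 5 most counted IDs made up 27.7% to 76.1%. Levels are given as CPM, counts scaled to a common library size by TMM factors. A single read pair was worth 1.20 CPM in CON13, 0.475 CPM in WD6 and between 0.0864 and 0.237 CPM in the other 8 libraries, so CON13 and WD6 were read with the least precision. The tissue label was checked against cell type markers. SIM1, a factor of the magnocellular lineage, was measured between 42.5 and 103 CPM in every library, whereas the suprachiasmatic peptides VIP and GRP had 32 and 20 counts over all 10 libraries together. Of the other suprachiasmatic markers, PROK2, SIX6, LHX1 and VIPR2 had 14 to 46 counts. RORB, also on that list, had 817, with a mean of 15.2 CPM in control and 10.4 CPM in WD. AVP and OXT were not paired with an ID and were not analysed here.

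All 9 members passed the filter on low counts, so each was tested among 14432 genes with edgeR's quasi-likelihood F test, with Benjamini-Hochberg adjustment over all of them. None of the 9 reached an adjusted p of 0.05, where 72 genes (0.499% of those tested) did. At an unadjusted p under 0.05 there were 3 members, DBP with a lower level in WD and NFIL3 and BHLHE40 with a higher one, against 9.31% of all genes (4.91% higher in WD and 4.41% lower). With the RNA integrity number as a covariate, NFIL3 (log2 fold change 0.65) and BHLHE40 (0.37) no longer reached that level in edgeR, DBP still did and TEF joined it (-0.45), against 9.57% of all genes in that fit. Without CON13 and WD6, likewise, DBP and TEF were the 2 members under 0.05, against 12.1% of all genes. With DESeq2, the tool of the study's methods, DBP passed at an adjusted p of 0.0410 and no other member did, where 209 genes (1.27% of those with an adjusted p, and 0.632% lower in WD) passed. The log2 fold changes (WD over control) of the members were positive for 5 and negative for 4, with a median of 0.20, beside a median of 0.02 over all genes tested. This split and median depend on the libraries and the scaling, with a median of 0.03 without WD15, 0.05 with the RNA integrity number and 0.34 under library totals, and 7 positive values without CON2, without WD6, without both CON13 and WD6 and under library totals. In bulk tissue, less RNA per cell and fewer cells of a type cannot be told apart.

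**Figure D1:**
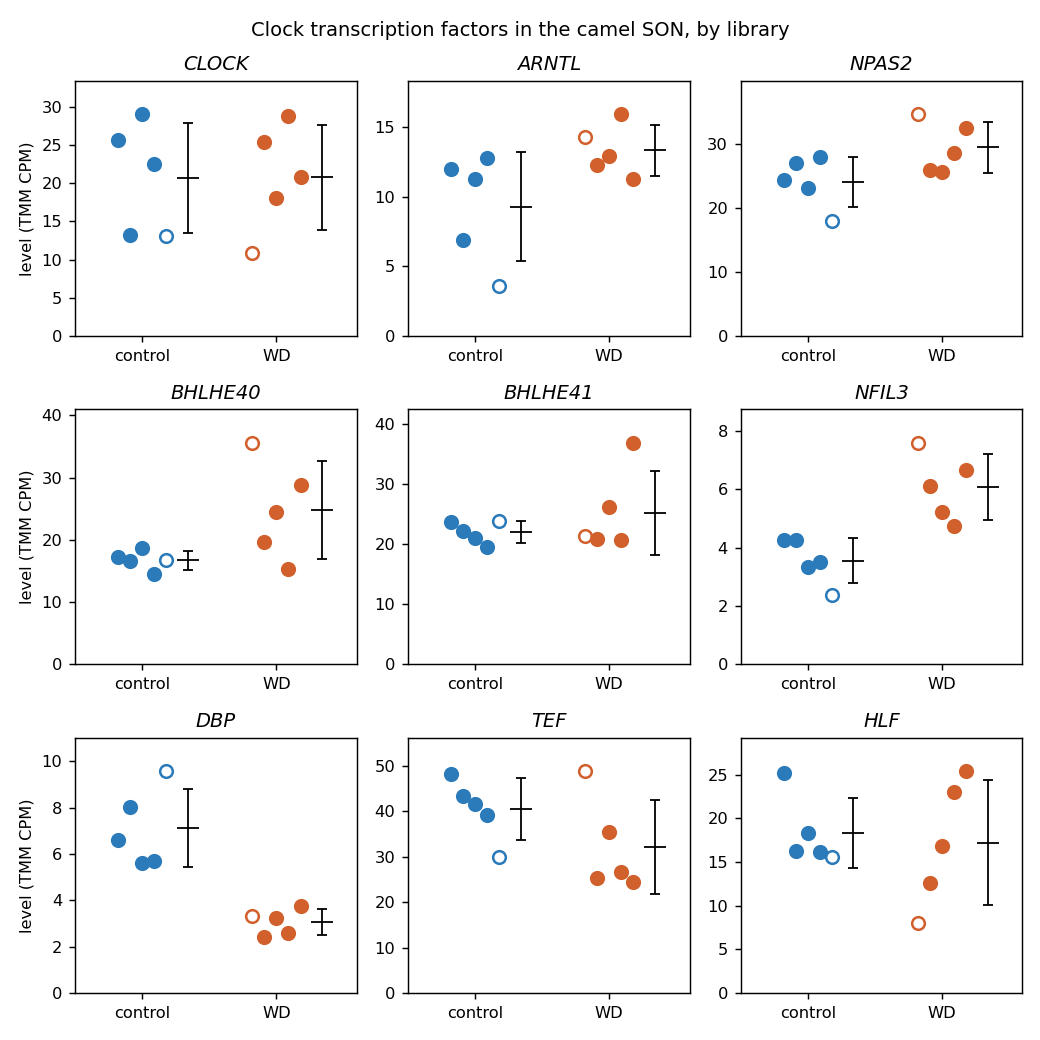
Level of each of the 9 clock transcription factors (TMM-normalized CPM, linear axes from 0) in 5 control (blue) and 5 WD (orange) libraries, with the mean and SD in black. Open circles are CON13 and WD6, the 2 libraries in which 1 count weighs most. The 2 groups are fully apart for DBP, lower in WD, and for NFIL3, higher in WD.

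Of the activators of the PAR bZIP family, DBP showed the widest difference between the groups. DBP measured 6.62, 8.04, 5.62, 5.71 and 9.57 CPM in control libraries 2, 3, 4, 5 and 13, and 3.32, 2.42, 3.23, 2.59 and 3.75 CPM in WD libraries 6, 7, 8, 9 and 15. Every WD library lay below every control library, a pattern found in 1.27% of the genes tested. Mean levels were 7.11 ± 1.68 CPM in control and 3.06 ± 0.547 CPM in WD (SD, n = 5 each). The fitted log2 fold change was -1.18 (SE 0.330, 95% interval -1.87 to -0.48), a level 2.26-fold lower in WD, with an edgeR p of 0.00231 and an adjusted p of 0.184. A change of at least this size in either direction was seen in 1.91% of the genes. DESeq2 gave nearly the same log2 fold change, -1.17 with an SE of 0.334, but an adjusted p of 0.0410, so the call on DBP depends on the tool.

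These levels rest on few reads. DBP had 31, 34, 49, 39 and 8 counts in the control libraries and 7, 19, 21, 30 and 18 in the WD libraries. Leaving out any 1 library kept the log2 fold change between -1.27 and -1.10 and the unadjusted edgeR p under 0.05 in 10 of 10 fits, while the adjusted p ranged from 0.108 without WD6 to 0.404 without CON3. Without both CON13 and WD6 the log2 fold change was -1.14, with an adjusted p of 0.132 in edgeR. Among the 5 libraries of lower depth (CON2, CON3, CON13, WD6 and WD15) the WD mean was 0.438 times the control mean, and among the 5 of higher depth it was 0.485 times.

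TEF and HLF, the other PAR bZIP activators, did not share this separation over all 10 libraries. TEF measured 48.2, 43.5, 41.7, 39.2 and 29.9 CPM in control and 48.9, 25.3, 35.5, 26.6 and 24.4 CPM in WD, in the same library order. The highest TEF level of all 10 was that of WD6, and 3 of the 5 WD libraries lay below the lowest control library, CON13. The WD mean of TEF was 0.720 times the control mean among the libraries of higher depth, where the groups did not overlap, and 0.903 times among those of lower depth, where they did. With 3 libraries against 2 in a depth set, groups come apart easily. The share of all genes that did so was not computed. The log2 fold change of TEF was -0.38 (SE 0.211, 95% interval -0.83 to 0.06; edgeR adjusted p = 0.622). Leaving out WD6 alone took it to -0.56 with an adjusted p of 0.180, and leaving out CON13 as well to -0.64 with an unadjusted edgeR p of 0.00168 and an adjusted p of 0.124. HLF ranged from 15.5 to 25.2 CPM in control and from 8.07 to 25.4 CPM in WD, where the spread was widest of the 9 members (coefficient of variation 41.7%). Its log2 fold change was -0.08 (SE 0.268, 95% interval -0.64 to 0.49; edgeR adjusted p = 0.959).

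The share of DBP within the family was computed after its levels had been seen, because library scaling does not enter it. DBP made up 8.27, 11.8, 8.57, 9.35 and 17.4% of the summed DBP, TEF and HLF counts in control libraries 2, 3, 4, 5 and 13. In the WD libraries the share was 5.51, 6.01, 5.80, 4.97 and 7.0%. The lowest control share, in CON2, stood above the highest WD share, in WD15. The share is built on the same DBP counts, so it restates the separation of DBP and is not independent of it.

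NFIL3, the repressor at the D-box, differed in the opposite direction from DBP. Its levels were 4.27, 4.26, 3.33, 3.51 and 2.39 CPM in control and 7.59, 6.12, 5.22, 4.75 and 6.67 CPM in WD. Every WD library lay above every control library, which held for 1.34% of the genes tested. Mean levels were 3.55 ± 0.776 CPM in control and 6.07 ± 1.13 CPM in WD (SD, n = 5 each). The log2 fold change was 0.70 (SE 0.320, 95% interval 0.02 to 1.37), 1.62-fold higher in WD, with an edgeR p of 0.0432 and an adjusted p of 0.521. A change at least as large was seen in 8.68% of the genes, so the size of the NFIL3 difference was not unusual in these data.

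NFIL3 was also scarce, with 20, 18, 29, 24 and 2 counts in control and 16, 48, 34, 55 and 32 in WD. Its unadjusted p stayed under 0.05 in 2 of the 10 edgeR fits that leave out 1 library, with a log2 fold change between 0.61 and 0.78, and the adjusted p was at least 0.395. The WD mean was 1.96 times the control mean among the libraries of lower depth and 1.57 times among those of higher depth. When levels were scaled by library totals in place of TMM, the 2 groups overlapped.

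Set against each other within a library, the opposed D-box factors changed order. This ratio of NFIL3 to DBP counts was also chosen after the values were seen and is given without a test. It was 0.645, 0.529, 0.592, 0.615 and 0.25 in the control libraries, where DBP had more counts than NFIL3 in every one. In the WD libraries it was 2.29, 2.53, 1.62, 1.83 and 1.78, so NFIL3 had more counts than DBP in all 5. As the levels of DBP and NFIL3 were each fully apart, in opposite directions, the separation of this ratio follows from theirs and is no further result. The median went from 0.592 in control to 1.83 in WD. Transcript lengths were not used, so the ratio compares libraries and does not say which mRNA was the more abundant.

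**Figure D2:**
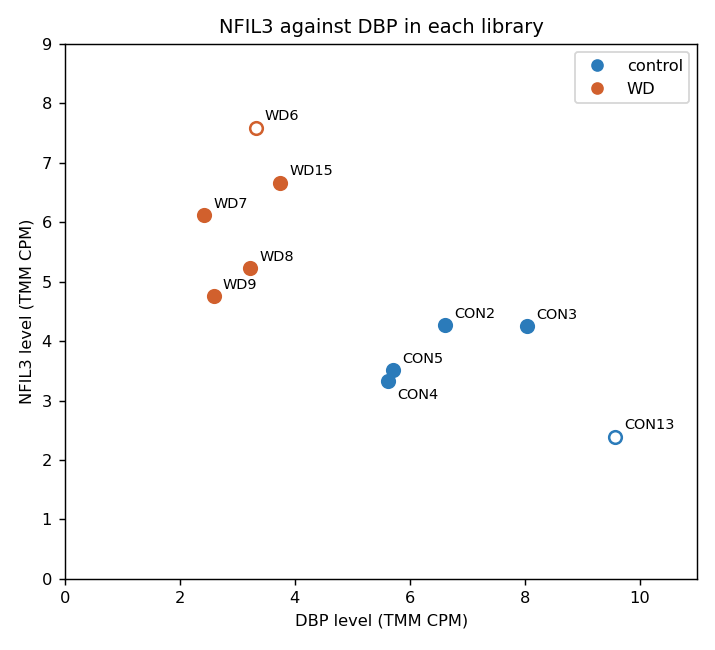
NFIL3 level against DBP level (TMM CPM, linear axes from 0) in each library, control in blue and WD in orange, with open circles for CON13 and WD6. The 5 WD libraries sit at 2.42 to 3.75 CPM of DBP and 4.75 to 7.59 CPM of NFIL3, and the 5 control libraries at 5.62 to 9.57 and 2.39 to 4.27 CPM.

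Both E-box repressors had higher mean levels in WD than in control, BHLHE40 by more than BHLHE41. The control libraries lay close together at 17.3, 16.6, 18.7, 14.5 and 16.7 CPM. The WD libraries were spread over 35.6, 19.6, 24.4, 15.3 and 28.8 CPM. Of these, 4 lay above every control library and WD9 lay within the control range. The coefficient of variation was 9.07% in control and 31.9% in WD, a difference that was not tested. The log2 fold change was 0.53 (SE 0.228, 95% interval 0.05 to 1.01), with an edgeR p of 0.0315 and an adjusted p of 0.474. The unadjusted p was under 0.05 in 4 of the 10 fits that leave out 1 library, in which the log2 fold change ran from 0.38 to 0.67. The WD mean was 1.91 times the control mean in the libraries of lower depth and 1.19 times in those of higher depth, so the BHLHE40 difference was larger in the first set.

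BHLHE41, the paralogue, ranged from 19.6 to 23.9 CPM in control and from 20.7 to 36.9 CPM in WD, with 1 library, WD15, far above the next, WD8, at 26.3 CPM. Its log2 fold change was 0.20 (SE 0.203, 95% interval -0.23 to 0.63; edgeR adjusted p = 0.826) and came to 0.03 without WD15 and to 0.05 with the RNA integrity number as a covariate. The RefSeq span of BHLHE41, in another assembly of the camel genome, overlaps that of SSPN, and the strand setting of the counting is not given in the sources used here.

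The E-box activators did not differ beyond the spread of their libraries. CLOCK measured 25.6, 13.2, 29.0, 22.5 and 13.2 CPM in control and 10.9, 25.4, 18.1, 28.8 and 20.8 CPM in WD. The means, 20.7 ± 7.24 and 20.8 ± 6.88 CPM (SD, n = 5 each), were nearly equal, and the log2 fold change was -0.02 (SE 0.266, 95% interval -0.57 to 0.54; edgeR adjusted p = 0.991). The interval still allows a change of about 0.5 on the log2 scale either way. NPAS2 ranged from 17.9 to 28.0 CPM in control and from 25.7 to 34.6 CPM in WD, and 3 WD libraries lay above every control library. Its log2 fold change was 0.25 (SE 0.181, 95% interval -0.13 to 0.63; edgeR adjusted p = 0.726). The WD mean of NPAS2 was 1.45 times the control mean at lower depth and 1.04 times at higher depth. At lower depth the groups did not overlap, but these were only 3 control and 2 WD libraries. Its log2 fold change was 0.12 without CON13 and WD6.

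ARNTL, the partner that both CLOCK and NPAS2 require, varied most in the control group. Its levels there were 11.95, 6.86, 11.2, 12.7 and 3.59 CPM, and CON13 held only 3 counts of it. In WD they were 14.2, 12.2, 12.9, 15.9 and 11.3 CPM. The coefficient of variation was 42.2% in control and 13.6% in WD. Means were 9.28 ± 3.91 and 13.3 ± 1.81 CPM (SD, n = 5 each), with a log2 fold change of 0.41 (SE 0.259, 95% interval -0.13 to 0.96). Its adjusted p in edgeR was 0.680, from an unadjusted p of 0.130. The higher WD mean came mostly from the low control libraries CON3 and CON13, since the WD mean was 1.71 times the control mean in the libraries of lower depth but 1.14 times in the others. The RefSeq span of ARNTL overlaps those of BTBD10 and RASSF10, and that of NPAS2 overlaps RPL31. No overlapping gene was listed for CLOCK, BHLHE40, DBP, TEF, HLF or NFIL3.

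**Figure D3:**
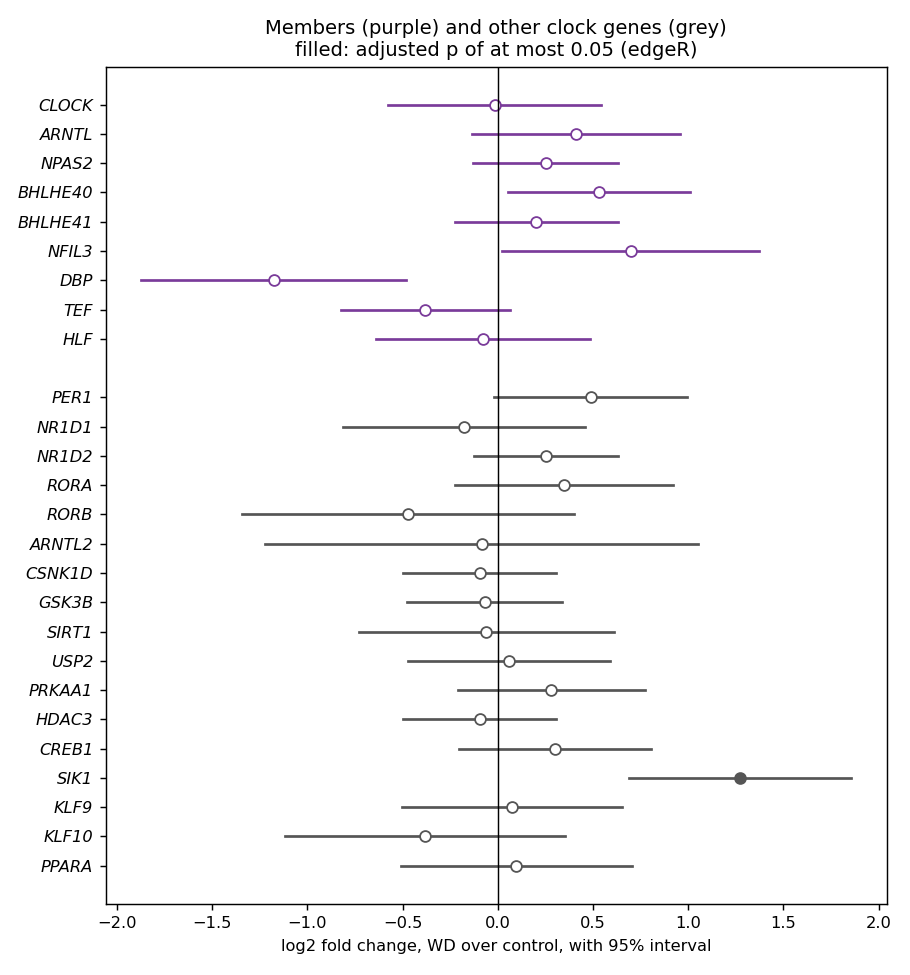
Log2 fold change (WD over control, edgeR) with its 95% interval for the 9 members (purple) and 17 other clock genes (grey). Filled points have an adjusted p of at most 0.05, which only SIK1 reached. The intervals of DBP, BHLHE40, NFIL3 and SIK1 do not cross 0.

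The other genes of the clock gave a background for the members. Of 30 listed genes, 17 were paired with an ID and all 17 were tested. PER2, PER3, CRY1, CRY2 and 9 others were not paired and were not analysed here, so most of the negative limb is missing. Among the 17, the log2 fold change was positive for 9 and negative for 8, with a median of 0.06. The median was -0.03 without CON3 or without CON13 and 0.16 without CON5, and under library totals 13 were positive, with a median of 0.19. Only SIK1 passed (edgeR log2 fold change 1.27, SE 0.276, adjusted p = 0.0476), where 0.499% of all genes tested did. SIK1 encodes a kinase that is induced by cAMP signalling and restrains resetting of the clock by light. It measured 5.97 to 14.3 CPM in control and 16.8 to 33.7 CPM in WD. Such a lack of overlap, with WD above control, was found in 1.34% of the genes tested. The call on SIK1 was lost in 9 of the 10 edgeR fits that leave out 1 library, all but the one without WD7. Its adjusted p was highest, 0.178, when CON3 was left out, although the log2 fold change ranged only from 1.08 to 1.4.

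PER1, the period gene that responds to cAMP signalling, was paired only through the study's table of differential expression, of which the part used here holds the genes of smallest adjusted p. It ranged from 44.2 to 70.7 CPM in control and from 46.6 to 125 CPM in WD (log2 fold change 0.49, SE 0.240, edgeR adjusted p = 0.564). The log2 fold change of PER1 was 0.26 without WD6, and its WD mean was 1.81 times the control mean at lower depth and 1.23 times at higher depth. NR1D1 and NR1D2, the repressors of ARNTL, had log2 fold changes of -0.18 and 0.25 with adjusted p of 0.919 and 0.724 in edgeR, and that of NR1D2 was 0.16 without CON3. NR1D1 is an E-box target as DBP is, yet its levels in WD, 5.99 to 7.07 CPM, lay inside the control range of 5.12 to 13.2 CPM. That range was set by CON13 and CON3, and the other 3 control libraries, at 5.12 to 5.74 CPM, lay below every WD library. The WD mean of NR1D1 was 0.683 times the control mean at lower depth and 1.12 times at higher depth, and its log2 fold change was -0.03 without CON13. RORA and RORB, the other paired genes of the nuclear receptor loop, had log2 fold changes of 0.35 and -0.47, neither of which passed. Without single libraries they came as low in size as 0.19 for RORA (without CON2) and -0.23 for RORB (without WD6). The remaining genes were the activator paralogue ARNTL2 (-0.09), the modifiers of clock proteins CSNK1D (-0.09), GSK3B (-0.07), SIRT1 (-0.06), USP2 (0.06), PRKAA1 (0.28) and HDAC3 (-0.09), and the input and output factors CREB1 (0.30), KLF9 (0.07), KLF10 (-0.38) and PPARA (0.10), and none of them passed. Without single libraries PRKAA1 came down to 0.13 (without CON2), and KLF10 ranged from -0.60 (without WD8) to -0.20 (without CON5). CSNK1D ran from -0.21 (without CON13) to -0.03 (without CON3), and was -0.32 without both CON13 and WD6. HDAC3 ran from -0.17 (without CON4) to -0.04 (without CON13).

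ARNTL and DBP are known for opposite phases in other tissues, and their ratio within a library was therefore described, without a test. DBP was 0.554, 1.17, 0.50, 0.448 and 2.67 times ARNTL in control libraries 2, 3, 4, 5 and 13, and 0.233, 0.198, 0.250, 0.163 and 0.333 times in WD libraries 6, 7, 8, 9 and 15. All control ratios lay above all WD ratios, which is not independent of the separation of DBP itself. The control ratios spanned a wider range, through CON3 and CON13, in which ARNTL was lowest and DBP highest.

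Across the 10 libraries, ARNTL was set against 10 other clock genes by log2 CPM. The levels of ARNTL and DBP ran in opposite directions, with Pearson's r = -0.764 (permutation p = 0.00102, adjusted over the 10 relations 0.0102) and Spearman's rho = -0.745 (permutation p = 0.0172, adjusted 0.172). With the group means removed r was -0.784 (permutation p adjusted 0.0178). That permutation ran over all libraries and not within the groups, so its p is not a within-group test. Within the groups r was -0.944 in control and -0.419 in WD, and it was -0.829 among the libraries of lower depth and -0.544 among those of higher depth. Without CON13 and CON3, the 2 libraries farthest from the median of ARNTL, r was -0.527 (permutation p adjusted 0.769). The call on the relation between ARNTL and DBP thus rests on those 2 libraries, both of lower depth, while r kept its sign without them.

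NR1D1 gave the steepest pooled value, r = -0.911 (permutation p = 0.0076, adjusted 0.0382), but its rank correlation was weak (rho = -0.321, adjusted permutation p = 0.611). It was -0.980 in control and -0.268 in WD, -0.954 among the libraries of lower depth and 0.257 among those of higher depth, and 0.213 without CON13 and CON3. With the group means removed it was -0.948 (permutation p adjusted 0.0013, again not a within-group test), with rho = -0.891. NR1D1 was highest in CON13 and CON3, at 13.2 and 9.46 CPM, and between 5.12 and 7.07 CPM in the other 8 libraries. None of the other 8 relations of ARNTL passed after adjustment, and the nearest, with NPAS2, NFIL3 and NR1D2, had adjusted permutation p of 0.0836. Without CON13, r fell to 0.234 for NPAS2 and to 0.265 for NFIL3. For CLOCK r was 0.497 over all libraries and 0.812 without WD6, where its adjusted permutation p was 0.031. Log2 CPM of CLOCK followed the log2 depth of the library (r = 0.787, rho = 0.842). That of ARNTL did so less by rank (r = 0.766, rho = 0.418), and DBP ran the other way (r = -0.560, rho = -0.624). The part of depth in these relations was not tested beyond the values within depth sets.

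**Figure D4:**
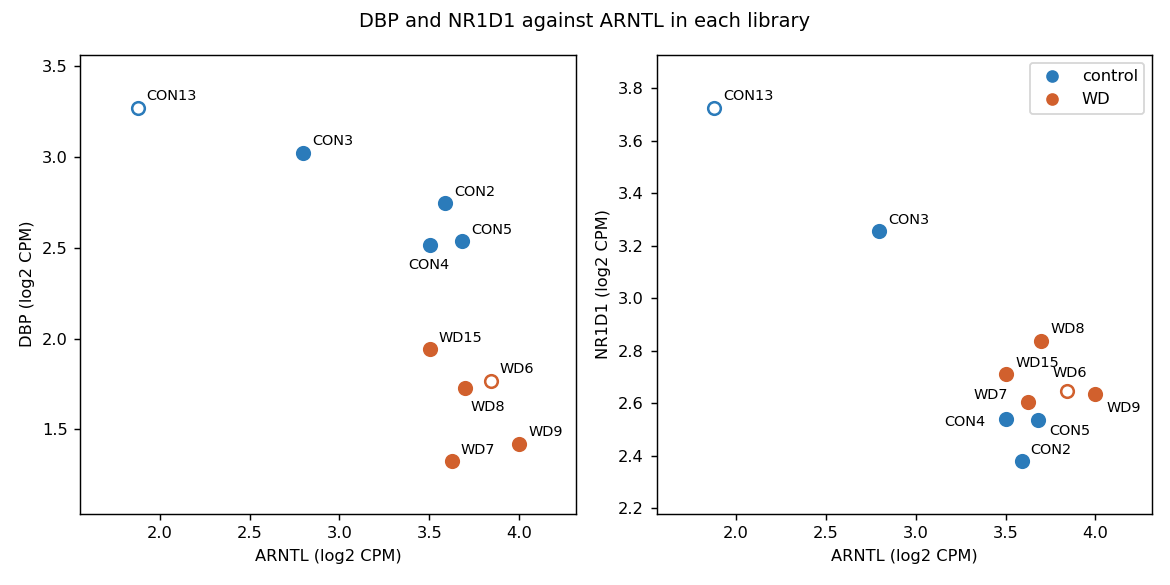
DBP (left) and NR1D1 (right) against ARNTL in each library, all in log2 CPM, with control in blue, WD in orange and open circles for CON13 and WD6. CON13 and CON3 stand apart at low ARNTL and high DBP and NR1D1. Among the other 8 libraries the WD libraries lie below the control libraries for DBP and above them for NR1D1.

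The genes whose levels ran most like those of these members over the 10 libraries were sought among 3591 tested genes with a symbol, as a description. Some symbols, as that of PER1, came only through the genes of smallest adjusted p, so genes that differ between the groups may be over-represented. Each r was taken over both groups together, and none was computed within a group. For DBP they were LRFN2 (r = 0.950), HR (r = 0.946) and RASGEF1C (r = 0.930). HR, the hairless corepressor of nuclear receptors, passed the test (edgeR log2 fold change -1.58, adjusted p = 0.00120), and the other two did not. For ARNTL they were FGL1 (r = 0.975), PTP4A2 (r = 0.975) and ATF6 (r = 0.965), each of which also followed log2 depth (r between 0.794 and 0.819).

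Marker levels of the cell types in the punch are given beside these results. The 3 paired astrocyte markers of 8 listed, ALDH1L1, GJA1 and ALDOC, were paired as PER1 was, only through the genes of smallest adjusted p, so the comparison itself helped to choose them and their direction is no independent evidence. They were higher in value in WD and none was called, with summed levels of 298 to 416 CPM in control and 475 to 624 CPM in WD. All 9 microglial markers were higher in value, 1 of them called, with sums of 318 to 512 CPM against 418 to 1441 CPM, and 5 of these 9 (AIF1, CX3CR1, P2RY12, C1QA and C1QB) were paired in the same way. The 5 paired oligodendrocyte markers of 9 had lower values and none was called (89.0 to 247 against 84.0 to 196 CPM), and of 7 paired endothelial markers of 9, 6 were higher in value and none was called (243.9 to 434 against 257 to 526 CPM). The 4 paired magnocellular markers of 7 summed to 501 to 699 CPM in control and 830 to 1253 CPM in WD, through PDYN, the 1 of them that was higher in value and was called. The other 3, SIM1, OTP and ARNT2, were lower in value and not called. Of the suprachiasmatic markers 7 of 8 were paired, only RORB passed the filter on low counts and it was not called, and their sums were 18.1 to 29.9 CPM in control and 7.12 to 21.2 CPM in WD. The part of cell type composition in the levels of DBP, NFIL3 and BHLHE40 was not tested.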

How the data were processed

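Ribosome-depleted, stranded libraries of rostral SON RNA were sequenced, 5 from control and 5 from WD camels. The authors trimmed reads (BBDuk), aligned them to Camdro2 (STAR), counted read pairs per gene (featureCounts) and deposited raw counts for 22444 IDs. The annotation release, the strand setting and the handling of shared reads are not given in the sources used here. The deposited table of normalized values was not used. The members and gene lists were chosen with earlier results of these data known.

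WD and control were compared with edgeR 4.0.16 in R 4.3.3 (TMM, filterByExpr by group, robust quasi-likelihood fit), unpaired and without covariates, with Benjamini-Hochberg adjustment over 14432 genes and a threshold of 0.05. The alternatives were DESeq2 1.42.0, other scalings and filters, covariates, and fits without single libraries. The covariates were the RNA integrity number, the depth set, and short fragments (a mean size under 300 bp, CON13 and WD15). Standard errors were derived from the F statistic. Log2 CPM used a prior count of 0.5, and permutation tests in Python 3.11.15 were two-sided with 100000 resamples. Depth sets split the libraries by their counts outside the 5 most counted IDs, the lower 5 against the higher 5. In a simulation with these 14432 genes, the fit found 60% of genes given a log2 change of 1 and 95% of genes given a log2 change of 2, with 8 calls on unchanged genes. The changed genes were drawn only from those above a floor on mean counts. Of the genes tested, 18.1% had a lower mean CPM than DBP and 16.7% a lower one than NFIL3. The rates found need not hold for members that scarce.

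Symbols came from the parts of the study's supplementary tables used here, which paired 4640 IDs. The genes named are the 9 members, the 17 paired genes of the clock list, marker genes, and the 3 genes most like ARNTL and DBP. 1 clock gene outside the 30 listed is not reported here. No coordinates or sequences of Camdro2 were used.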

Additional observations from a re-analysis of the deposited data

Results flagged for a closer look

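Among 52 groups of 5 libraries (26 genes in 2 conditions), 7 held a library whose gap to its nearest neighbour took more than 0.71 of the group's range of log2 CPM, and chance gives about 1 in 20. None of the 7 concerned a member. WD9 stood above the other WD libraries for NR1D2 (gap 0.719 of the range, 42.3 CPM against 32.9 to 35.3) and for RORA (0.712, 11.5 CPM against 7.84 to 8.75). WD6 stood below them for RORB (0.910), ARNTL2 (0.938) and SIRT1 (0.931, 5 counts). RORB and ARNTL2 had 0 counts in WD6, which allows up to 1.42 CPM for each (3 counts, counting error only), against at least 10.6 and 5.61 CPM in the other WD libraries. ARNTL2 also had 0 counts in CON13 (0.774), which allows up to 3.59 CPM, above the 3.08 CPM of CON3. CON4 stood below the other controls for USP2 (0.735, 8.15 CPM against 15.4 to 19.3).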

How the results depend on the processing

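The number of genes called was 72 with edgeR, 10 under scaling by library totals (7 higher and 3 lower, with the median log2 fold change of all genes at 0.16), 224 with the depth set as a covariate, 209 with DESeq2 and 40 to 102 without single libraries. The members called stayed at 0 in every edgeR fit and came to 1 with DESeq2. The clock list called, SIK1 alone, came to 0 under library totals (SIK1 log2 fold change 1.35, adjusted p 0.574), with the RNA integrity number (1.16, 0.0508) or short fragments (1.22, 0.0502) as a covariate and without both CON13 and WD6 (1.21, 0.0698), and to between 0 and 1 without single libraries. SIK1 stayed called with the depth set as a covariate (edgeR log2 fold change 1.38, adjusted p 0.00135) and with DESeq2 (1.27, adjusted p 0.00451). DBP, NFIL3 and ARNTL had no value under a minimum of 10 counts in every library. The direction of CLOCK turned under library totals (0.20), RNA integrity number (0.048), short fragments (0.0135) and without CON13 and WD6 (0.0197), and ran from -0.17 to 0.12 without single libraries. That of HLF turned under library totals (0.12) and without CON13 and WD6 (0.0185), with -0.24 to 0.0638 without single libraries. The other 7 members kept their direction throughout.

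Small values of other clock genes also turned. Under library totals these were ARNTL2 (0.15), GSK3B (0.0571), SIRT1 (0.17) and HDAC3 (0.054). With the RNA integrity number they were ARNTL2 (0.0838), GSK3B (0.067), USP2 (-0.0135), KLF9 (-0.0146) and PPARA (-0.0185), and without CON13 and WD6 SIRT1 (0.0694) and KLF9 (-0.048). Without single libraries the ranges were -0.26 to 0.18 (ARNTL2), -0.17 to 0.0223 (GSK3B), -0.16 to 0.14 (SIRT1), -0.15 to 0.17 (USP2), -0.0758 to 0.32 (KLF9) and -0.0915 to 0.22 (PPARA). Without CON13 and CON3, r with ARNTL turned for CLOCK (-0.240), BHLHE40 (-0.0732), TEF (-0.0327), HLF (-0.275) and NR1D1 (0.213), and for BHLHE40 with the group means removed (-0.110). Without single libraries it ran from -0.247 to 0.211 for TEF and from -0.0900 to 0.329 for HLF. The cause of these shifts was not tested. No paired analysis was possible because the groups share no replicate number.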
